A study of Mus musculus with 2 samples.

Results

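Osteoclast and cell fusion genes were followed in cultured mouse macrophages with and without IL-36 gamma, an inflammatory cytokine related to interleukin-1. The set holds 9 of the 54446 genes counted: the RANK receptor gene Tnfrsf11a, the co-receptor gene Oscar, the transcription factor genes Nfatc1 and Mitf, the fusion genes Dcstamp, Ocstamp and Atp6v0d2, and the bone resorption genes Acp5 and Ctsk. The set was assembled because Atp6v0d2 was more than 2-fold lower with IL-36 gamma, so its value is the reason for the choice and is given as a description. The other 8 have known roles in the same process. The cells were bone marrow derived macrophages from C57BL/6 mice, either given IL-36 gamma or, as the control, left without it. Each condition had 1 RNA library. The sources used here do not give the dose, the time of exposure, the culture conditions, or the age and number of the mice. With 1 library per condition nothing was tested and no p-value is given.

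Osteoclasts are the cells that dissolve bone, and they arise when precursors of the macrophage lineage fuse. M-CSF keeps the precursors alive, and RANK ligand, made by other cells, binds RANK on them. RANK and immune receptors that signal through ITAM adaptors together switch on NFATc1, which with MITF and PU.1 turns on the genes of fusion and of resorption. Macrophages can also fuse into giant cells with part of the same machinery. The mature osteoclast seals itself to bone, pumps protons with the vacuolar ATPase and secretes cathepsin K and tartrate-resistant acid phosphatase.

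The IL-36 gamma library held 17267900 counts in genes and the control library 17426367. Levels are given in CPM, counts relative to the library total after TMM scaling, and every ratio has IL-36 gamma on top. Each interval is the exact 95% Clopper-Pearson interval of the ratio. It covers counting error only, not the spread between cultures, which these libraries cannot show. A gene is called below or above 1 when its whole interval is on that side, and measured when its mean count was at least 10. Of the 14379 measured genes, 16.5% lay below 1 and 20.2% above 1. Among the 3455 genes whose mean count reached 1000, 22.9% lay below 1 and 44.3% above it, so a call above 1 is frequent among abundant genes. In bulk RNA, fewer cells of a type and less RNA per cell cannot be told apart.

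Of the 9 genes, 8 were measured and Oscar was too low. Among the 8, the interval lay below 1 for Atp6v0d2 and Mitf, above 1 for Acp5, and included 1 for Tnfrsf11a, Nfatc1, Ctsk, Dcstamp and Ocstamp. Atp6v0d2 was the only member whose whole interval lay beyond 2-fold, on the lower side, where 0.0904% of measured genes lay. Since the set was chosen on this contrast, nothing is read from these counts. The median log2 ratio of the 8 measured members was -0.07, and that of all measured genes was 0.01. Without Atp6v0d2 the other 7 ran from a log2 ratio of -0.38 to 0.16.

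**Figure D1:**
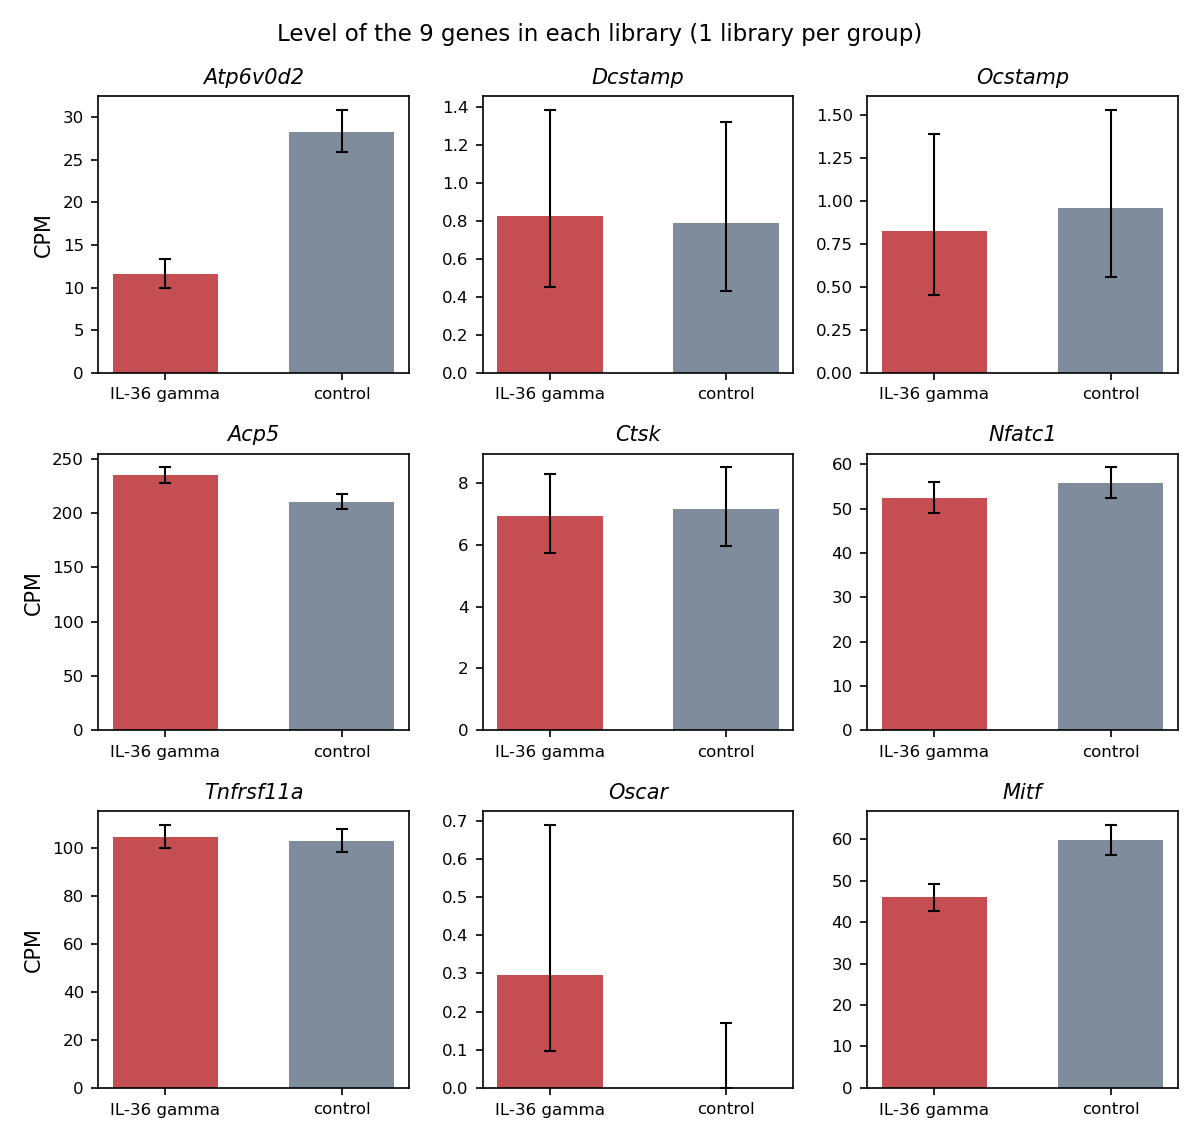
CPM of each of the 9 genes in the IL-36 gamma library and the control library, with exact 95% Poisson intervals of the count as error bars, or the level of 3 counts where the count was 0; each panel has its own axis from 0. The intervals of the 2 libraries are apart for Atp6v0d2 (11.6 and 28.3 CPM), Mitf (45.9 and 59.8 CPM) and Acp5 (235 and 210 CPM), and overlap in the other panels.

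The receptor end of the pathway was present and similar in both libraries. Tnfrsf11a (ENSMUSG00000026321, chromosome 1, 105780718 to 105847981, plus strand, mm10), which encodes RANK, had 1772 counts in the IL-36 gamma library and 1829 in the control library. That is 104.7 and 102.9 CPM, a ratio of 1.02 (0.952 to 1.09). The RANK ligand gene Tnfsf11 and the gene of its soluble decoy receptor, Tnfrsf11b, had 0 counts in both libraries. A count of 0 allows up to 0.177 CPM with IL-36 gamma and up to 0.169 CPM in the control, the level of 3 counts. The macrophages thus carried transcripts of the receptor, while those of its ligand and decoy were not detected at this depth.

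Downstream of RANK, small differences lay on both sides. Of 18 other measured genes of RANK signalling, 3 lay above 1 and 4 below, beside 20.2% and 16.5% of all measured genes. The median log2 ratio of all 19 measured genes of the list was -0.04. The kinase gene Akt1 had 5927 counts with IL-36 gamma and 5712 in the control (ratio 1.09, 1.05 to 1.13). The NF-kB kinase gene Ikbkb had 1795 and 2122 counts (ratio 0.888, 0.833 to 0.946). The kinase gene Src, needed for the ruffled border of osteoclasts, had 336 and 424 counts (ratio 0.832, 0.719 to 0.962). Tab1, which activates the kinase TAK1, had 328 and 414 counts (ratio 0.832, 0.717 to 0.964).

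The co-receptor gene Oscar was barely detected, while the adaptor it signals through, FcR gamma, was abundant. Oscar (ENSMUSG00000054594, chromosome 7, 3609813 to 3616157, minus strand), a collagen-binding receptor that pairs with the ITAM adaptor FcR gamma, had 5 counts with IL-36 gamma and 0 in the control. Set against the floor of 3 counts in the control library this is at least 1.75-fold higher, but the counting interval of the ratio begins at 0.962, below 1. Of 20 other measured genes listed for ITAM receptors, adaptors and calcium signalling, 7 lay above 1 and 2 below. Their median log2 ratio was 0.08. Of all measured genes, 20.2% lay above 1 and 16.5% below. At a mean count of at least 1000 these shares were 44.3% and 22.9%. Fcer1g, the gene of FcR gamma, had 12554 counts with IL-36 gamma and 10335 in the control (ratio 1.27, 1.24 to 1.31). Tyrobp, the gene of the adaptor DAP12, had 16160 and 15076 counts (ratio 1.13, 1.10 to 1.15). The calcium channel gene Orai1 had 1022 and 884 counts (ratio 1.21, 1.11 to 1.33). Siglece, one of the 7 listed genes above 1, encodes an inhibitory sialic acid receptor and is not itself an ITAM receptor. It had 3560 and 2803 counts (ratio 1.33, 1.27 to 1.40).

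Of the 2 transcription factor genes, Mitf was lower and the interval of Nfatc1 included 1. Nfatc1 (ENSMUSG00000033016, chromosome 18, 80606205 to 80713071, minus strand), the central regulator of osteoclast differentiation, had 889 counts with IL-36 gamma and 991 in the control. Its ratio was 0.942 (0.859 to 1.03), and with scaling by total counts it lay below 1 (0.905, 0.826 to 0.992). Mitf (ENSMUSG00000035158, chromosome 6, 97807052 to 98021349, plus strand), whose product binds E-boxes in resorption genes, had 778 counts with IL-36 gamma and 1063 in the control. Its level was 45.9 CPM with IL-36 gamma and 59.8 CPM in the control, a ratio of 0.768 (0.699 to 0.843). Mitf has several promoters and 8 annotated transcripts, and a count per gene does not say which of them differed.

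Most relatives of both factors had intervals that include 1. None of the 6 other measured NFAT and MiT family genes lay above 1, and 2 lay below it. The shares over all measured genes were 20.2% above and 16.5% below. Nfat5, known for the response to osmotic stress, had 772 counts with IL-36 gamma and 1212 in the control (ratio 0.669, 0.610 to 0.732). Nfatc2 had 1039 and 1226 counts (ratio 0.890, 0.818 to 0.967). The interval of Nfatc3, with 772 and 872 counts, included 1 (ratio 0.929, 0.842 to 1.02). Nfatc4 had 4 counts in each library. Mitf's partners in the MiT family had intervals that include 1. Tfe3, the most counted of them, had 2587 and 2592 counts (ratio 1.05, 0.992 to 1.11). Tfeb, a regulator of lysosome genes, had 1355 and 1330 counts (ratio 1.07, 0.991 to 1.15). Tfec had 174 and 192 counts (ratio 0.951, 0.770 to 1.17).

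Among 15 other measured osteoclast transcription factor genes, 4 lay above 1 and 1 below, beside 20.2% and 16.5% of all measured genes. The median log2 ratio of the whole list of 17 was 0.03. Spi1, the gene of PU.1, had 16863 counts with IL-36 gamma and 13385 in the control (ratio 1.32, 1.29 to 1.35). The AP-1 genes Jund (7761 and 6384 counts, ratio 1.28, 1.23 to 1.32) and Junb (5278 and 4747 counts, ratio 1.17, 1.12 to 1.21) were also above 1. Fosl2, another AP-1 gene, had 816 and 1034 counts (ratio 0.828, 0.755 to 0.909). Of the 1668 exonic bases of Jund, 877 coincide with exons on the other strand. Reads there cannot be assigned with certainty, since the strand setting of the counting is not given.

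**Figure D2:**
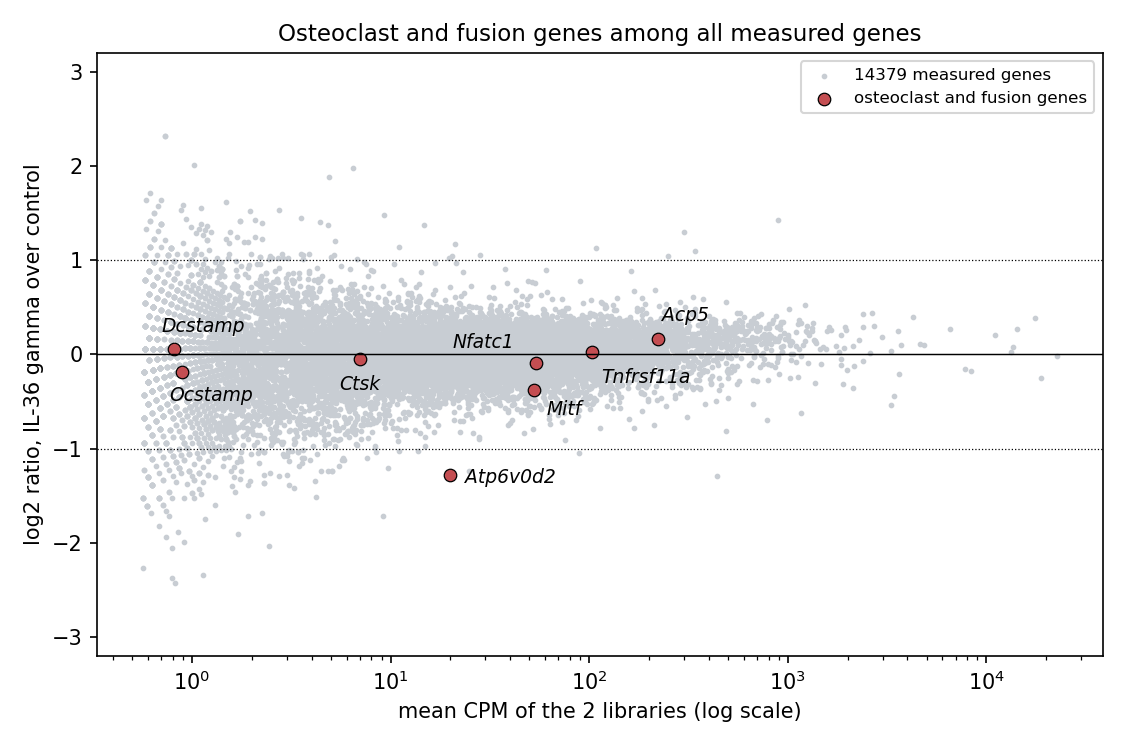
Log2 ratio of IL-36 gamma over control against the mean CPM of both libraries (log axis) for the 14379 measured genes in grey and the 8 measured osteoclast and fusion genes in red; dotted lines mark 2-fold. Atp6v0d2 lies at -1.28, below the lower dotted line, Mitf at -0.38 lies within the grey band, and the other 6 lie between -0.19 and 0.16; 1 grey gene lies beyond the plotted range of 3.2 on either side.

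Atp6v0d2 (ENSMUSG00000028238, chromosome 4, 19876841 to 19922605, minus strand) encodes the d2 form of the d subunit of the vacuolar ATPase. This isoform is abundant in osteoclasts, and mice without it have osteoclasts that fuse poorly. It had 196 counts with IL-36 gamma and 503 in the control, 11.6 and 28.3 CPM. The ratio was 0.409 (0.345 to 0.483), or 2.45-fold lower. With a 99% interval (0.327 to 0.508) it no longer lay wholly beyond 2-fold. Of 11952 measured protein-coding genes, 0.284% had a lower log2 ratio. Just inside the 2-fold bound, among protein-coding genes whose mean count reached 100, stood Il1rn (ratio 0.483) and Kcnj10 (0.489), and just outside it Plxdc2 (0.504) and Zfp182 (0.505). Over the 2 libraries, the genes of that level with the log2 ratio nearest to that of Atp6v0d2 were Mmp12 (ratio 0.409), Cd163 (0.423), Vsig4 (0.451), Sema6d (0.460) and Il1rn, at distances of 0.01 to 0.23 on the log2 scale.

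The d subunit has a second form, d1, found in nearly all cells, and its gene lay on the other side of 1. Atp6v0d1 (ENSMUSG00000013160, chromosome 8, 105524465 to 105566047, minus strand) had 2626 counts with IL-36 gamma and 2380 in the control, a ratio of 1.16 (1.10 to 1.22). Per kilobase of exon, Atp6v0d2 stood at 4.26 CPM with IL-36 gamma and 10.4 CPM in the control, and Atp6v0d1 at 86.5 and 74.7 CPM. On that scale Atp6v0d2 made up 4.70% of the d subunit transcripts with IL-36 gamma and 12.2% in the control.

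Whether reads of one d subunit gene could be counted for the other was looked at in their sequences. The coding sequences of 1053 and 1056 bases match at 694 of 1053 aligned positions (65.9%), and the longest run of identical bases in the transcripts is 17. The stretch around that run is shown from GENCODE M21, coding positions 108 to 227 of each, 5′ to 3′ on the minus strand, with bases identical in both genes in capitals (81 of 120). It spans an exon junction in each gene, between chr4:19910662-19922390 for Atp6v0d2 and chr8:105539396-105565805 for Atp6v0d1.
Atp6v0d2: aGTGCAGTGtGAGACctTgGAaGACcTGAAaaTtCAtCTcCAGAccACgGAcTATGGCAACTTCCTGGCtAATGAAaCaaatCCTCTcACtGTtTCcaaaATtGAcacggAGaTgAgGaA
Atp6v0d1: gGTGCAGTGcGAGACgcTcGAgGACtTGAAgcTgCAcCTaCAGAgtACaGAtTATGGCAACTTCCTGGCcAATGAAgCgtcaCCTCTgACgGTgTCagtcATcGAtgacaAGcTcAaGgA
Mismatches fall every few bases outside the run, so a read of that stretch differs between the genes at many positions.

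Of the other subunits of the pump, more lay slightly above 1 than below it. Of 18 other measured vacuolar ATPase genes, 10 lay above 1 and 3 below, and the median log2 ratio of the list was 0.11. The counts depend on the processing. By total counts 8 of the 18 lay above 1 and 4 below, and with the trend of ratios on expression removed 7 and 5. Of all genes with a mean count of 1000 or more, 44.3% lay above 1 and 22.9% below, with a median log2 ratio of 0.06. The stalk subunit gene Atp6v1g1 had 3625 counts with IL-36 gamma and 3166 in the control (ratio 1.20, 1.15 to 1.26). Atp6v1d, of the central rotor, had 1719 and 1520 counts (ratio 1.19, 1.11 to 1.27). Atp6v0b and Atp6v0e of the membrane sector had ratios of 1.17 (6407 and 5749 counts) and 1.16 (2890 and 2619 counts). The 3 genes below 1 all encode forms of the a subunit. Tcirg1, whose a3 form serves the osteoclast ruffled border, had 8934 counts with IL-36 gamma and 10244 in the control (ratio 0.915, 0.890 to 0.942). Atp6v0a1 had 2491 and 2953 counts (ratio 0.885, 0.839 to 0.934), and Atp6v0a2 1005 and 1151 (ratio 0.916, 0.841 to 0.998). All 3 differed from 1 by far less than Atp6v0d2. Atp6v0a4, Atp6v1e2 and Atp6v1g3 had 0 counts in both libraries.

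**Figure D3:**
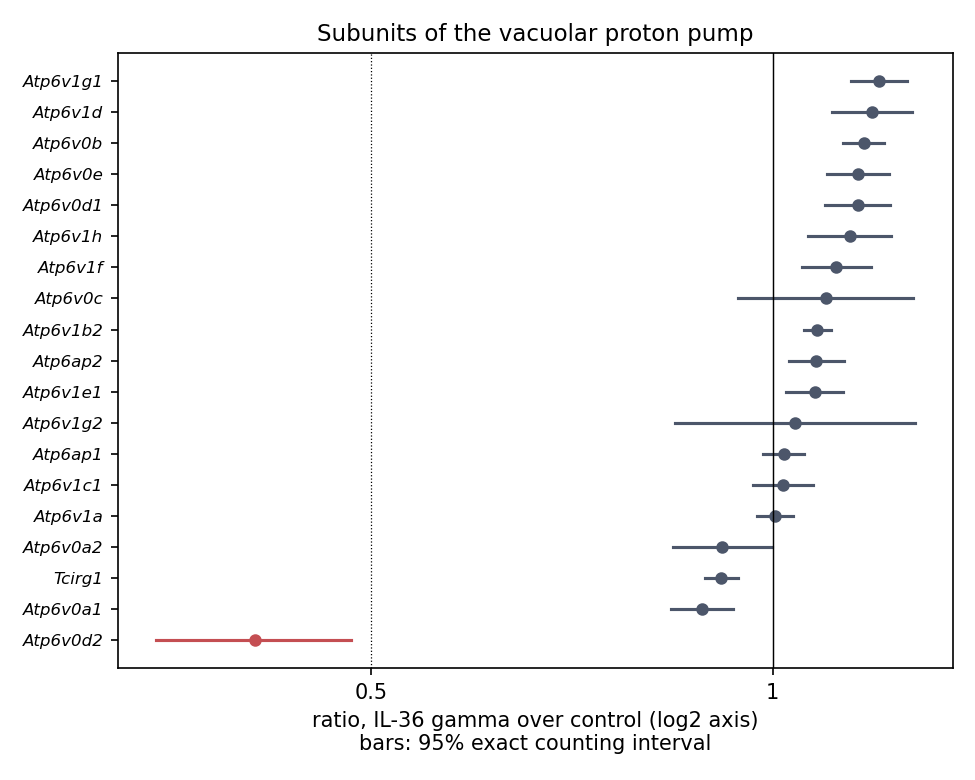
Ratio of IL-36 gamma over control (log2 axis) for the 19 measured vacuolar ATPase genes, with exact 95% counting intervals as bars, Atp6v0d2 in red and a dotted line at 0.5. Atp6v0d2 at 0.409 stands alone at the foot, and the other 18 lie between 0.885 and 1.20.

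The 2 fusogen genes were near the limit of detection. Dcstamp (ENSMUSG00000022303, chromosome 15, 39745930 to 39760938, plus strand), whose membrane protein is required for fusion of osteoclasts and of giant cells in mice, had 14 counts in each library. Its ratio was 1.05, with an interval of 0.464 to 2.38. Ocstamp (ENSMUSG00000027670, chromosome 2, 165393760 to 165400405, minus strand), a related membrane protein gene also required for fusion in mice, had 14 counts with IL-36 gamma and 17 in the control. Its ratio was 0.864 (0.394 to 1.86). A 2-fold difference in either direction is not outside the interval of Dcstamp, and one towards lower levels is not outside that of Ocstamp. Ocstamp lies 4622 bases from Slc13a3, a transporter gene on the same strand, which had 22096 counts with IL-36 gamma and 8608 in the control (ratio 2.69, 2.63 to 2.76). Slc13a3 was past 2-fold on the higher side, as were 0.0765% of measured genes, and its ratio and the interval of Ocstamp do not overlap. On the other side of Ocstamp, 5500 bases away, lies Zfp334. It had 30 counts with IL-36 gamma and 61 in the control (ratio 0.516, 0.322 to 0.812).

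Other genes of macrophage fusion lay below 1 more often than above it. Of 25 other measured fusion genes, 14 lay below 1 and 5 above, and the list, with the 3 members, had a median log2 ratio of -0.12. Of all measured genes, 16.5% lay below 1 and 20.2% above. At a mean count of at least 1000 these shares were 22.9% and 44.3%. The list was chosen with earlier results of these data known, so nothing is read from its counts. The tetraspanin gene Cd9 had 1977 counts with IL-36 gamma and 2950 in the control (ratio 0.703, 0.664 to 0.745). Dock1, an activator of Rac, had 490 and 719 counts (ratio 0.715, 0.636 to 0.803). Sh3pxd2a, the gene of the podosome scaffold TKS5, had 576 and 834 counts (ratio 0.725, 0.651 to 0.807). These 3 lay further from 1 than Mitf and less far than Atp6v0d2. The GTPase gene Rac2, with 19932 counts with IL-36 gamma and 15008 in the control, lay above 1 (ratio 1.39, 1.36 to 1.42). The smallest ratio after Atp6v0d2, that of the E-cadherin gene Cdh1 (0.428, 0.191 to 0.891), rests on 11 and 27 counts. The receptor Sirpa and its ligand Cd47, a pair that acts in fusion, had ratios of 0.967 (0.952 to 0.982) and 1.13 (1.08 to 1.18). Cdh1, Sirpa and Cd47 were chosen after their values were seen.

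**Figure D4:**
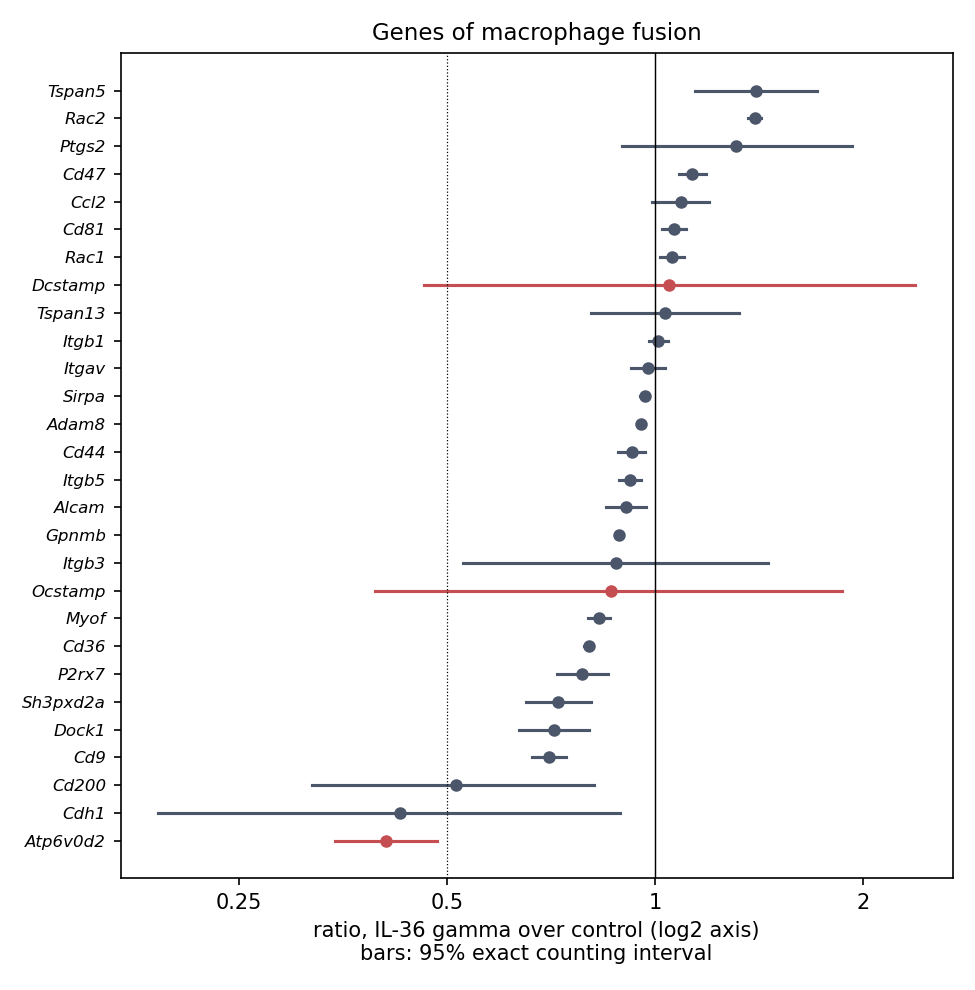
Ratio of IL-36 gamma over control (log2 axis) for the 28 measured genes of macrophage fusion, with exact 95% counting intervals as bars and Atp6v0d2, Dcstamp and Ocstamp in red. Atp6v0d2 lies lowest at 0.409, Cd9 lies at 0.703, Rac2 at 1.39, and the wide bars of Dcstamp and Ocstamp cross 1.

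The 2 resorption genes were not lower with IL-36 gamma beyond counting error. Acp5 (ENSMUSG00000001348, chromosome 9, 22126727 to 22135711, minus strand), the gene of tartrate-resistant acid phosphatase, had 3976 counts with IL-36 gamma and 3741 in the control. That is 235 and 210 CPM, a ratio of 1.12 (1.07 to 1.17). With the trend of ratios on exon length removed, Acp5 no longer lay above 1 (ratio 1.03, 0.989 to 1.08). Of its 2030 exonic bases, 137 coincide with exons on the other strand, and reads there cannot be assigned with certainty since the strand setting of the counting is not given. Ctsk (ENSMUSG00000028111, chromosome 3, 95499256 to 95509362, plus strand), the gene of the collagen-degrading protease cathepsin K, had 117 counts with IL-36 gamma and 127 in the control. Its ratio was 0.967 (0.746 to 1.25).

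Acp5 and Ctsk are known targets of MITF and NFATc1, and the bases before their starts are shown because Mitf lay below 1 while neither of these did. The interval of Ctsk includes the ratio of Mitf. Sequences are from RefSeq on GRCm38.p6, which has the chromosome coordinates of mm10, and cover the 250 bases before a start site, 5′ to 3′. Acp5 has 3 annotated starts, and the window shown, chr9:22130599-22130848 on the minus strand, is the one of them that holds an E-box. Ctsk has the window chr3:95498960-95499209 on the plus strand. Capitals mark the E-boxes CATGTG and CACGTG and the NFAT core GGAAA, searched on both strands.
Acp5: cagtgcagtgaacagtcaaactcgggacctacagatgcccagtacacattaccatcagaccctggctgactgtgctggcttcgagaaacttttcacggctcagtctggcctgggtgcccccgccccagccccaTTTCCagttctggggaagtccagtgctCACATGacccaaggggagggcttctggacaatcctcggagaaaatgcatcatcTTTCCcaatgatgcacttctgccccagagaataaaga
Ctsk: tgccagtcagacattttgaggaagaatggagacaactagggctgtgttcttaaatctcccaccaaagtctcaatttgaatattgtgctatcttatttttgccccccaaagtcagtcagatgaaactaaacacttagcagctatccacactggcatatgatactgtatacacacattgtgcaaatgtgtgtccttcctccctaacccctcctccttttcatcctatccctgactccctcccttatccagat
Acp5 holds 1 CATGTG, read on the other strand and starting 90 bases before the start site, and 2 GGAAA cores. Ctsk holds none of these letters in this window. Of 32851 promoter windows of that length, 12.3% hold CATGTG, 6.02% CACGTG and 55.6% GGAAA, so a match is frequent by its letters alone. Among the other members, promoters of Mitf, Oscar and Tnfrsf11a were matched in the same source and those of Atp6v0d2, Dcstamp and Ocstamp were not. Nfatc1 was not looked up. The Oscar window holds 1 CATGTG and 3 GGAAA cores, and the windows of Mitf and Tnfrsf11a hold neither E-box.

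Of 18 other measured resorption genes, 4 lay above 1 and 5 below, beside 20.2% and 16.5% of all measured genes. The list had a median log2 ratio of -0.01. The cathepsin gene Ctss had 35910 counts with IL-36 gamma and 30884 in the control (ratio 1.22, 1.20 to 1.24). Plekhm1, which directs lysosomes to the ruffled border, had 5261 and 4704 counts (ratio 1.17, 1.13 to 1.22). The matrix protease genes Mmp14 (5487 and 6946 counts, ratio 0.829, 0.800 to 0.859) and Mmp9 (365 and 478 counts, ratio 0.801, 0.697 to 0.920) lay below 1. The chloride transporter gene Clcn7 and its partner Ostm1, which act with the proton pump, had ratios of 1.004 (0.957 to 1.05) and 0.984 (0.911 to 1.06). Both were chosen after their values were seen.

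The order of levels per kilobase of exon differed between the libraries at Atp6v0d2. With IL-36 gamma the order was Acp5 (115.7 CPM per kilobase), Tnfrsf11a (17.5), Mitf (7.42), Nfatc1 (7.03), Ctsk (4.57), Atp6v0d2 (4.26), Dcstamp (0.310), Ocstamp (0.226) and Oscar (0.160). In the control it was Acp5 (103.7 CPM per kilobase), Tnfrsf11a (17.2), Atp6v0d2 (10.4), Mitf (9.65), Nfatc1 (7.47), Ctsk (4.73), Dcstamp (0.296) and Ocstamp (0.262), with Oscar at 0. With IL-36 gamma, the counting intervals of the neighbours Mitf and Nfatc1, Ctsk and Atp6v0d2, Dcstamp and Ocstamp, and Ocstamp and Oscar overlap. In the control those of Atp6v0d2 and Mitf overlap, as do those of Dcstamp and Ocstamp. Within counting error, Atp6v0d2 thus could not be ordered against Ctsk in the IL-36 gamma library or against Mitf in the control. Its change of place restates the difference by which the set was chosen.

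The labelled cell type was checked against markers. For comparison, 20.2% of all measured genes lay above 1 and 16.5% below. At a mean count of at least 1000 these shares were 44.3% and 22.9%. All 10 macrophage identity genes were measured, 3 above 1, among them Fcgr1 (ratio 1.35) and Itgam (1.28), and 6 below, among them Mrc1 (0.672) and Csf1r (0.809). Their summed level was 29814 CPM with IL-36 gamma and 30061 CPM in the control. Lyz2 alone gave 22462 and 22763 CPM of these sums, so they mostly reflect that gene. Of the 11 osteoclast markers, Calcr (0 and 1 counts), Oscar, Dcstamp and Ocstamp were at or near 0, and Itgb3 had 31 counts with IL-36 gamma and 37 in the control. The other 6, Ctsk, Atp6v0d2, Mmp9, Nfatc1, Tnfrsf11a and Acp5, had more than 100 counts in each library, with the values given above. Of 9 measured neutrophil markers, 6 lay above 1 and 0 below, with a summed level of 243 CPM with IL-36 gamma and 151 CPM in the control. The granule and calgranulin genes Ngp (ratio 1.54), S100a8 (1.58) and S100a9 (1.70) were among them, as was Elane, with 22 counts with IL-36 gamma and 3 in the control (ratio 7.70, 2.31 to 40.2). Ly6g, the defining marker, had 9 and 8 counts. Of 5 measured osteoblast and stromal markers, Col1a1 (ratio 0.686) and Col1a2 (0.367) lay below 1, with 14.9 CPM for the list in sum with IL-36 gamma and 18.6 CPM in the control. Runx2, the gene of this list with the most counts, had 131 with IL-36 gamma and 132 in the control (ratio 1.04, 0.812 to 1.34). Sp7 and Ibsp had 1 count in each library, and Dmp1 and Lum had 0. Of 10 dendritic cell markers only Itgax (ratio 0.541) and Batf3 (1.34) were measured, and the list summed to 35.0 CPM with IL-36 gamma and 48.4 CPM in the control. The part of these cells in the lower Atp6v0d2 level was not tested.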

How the data were processed

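Messenger RNA was counted in 2 libraries of mouse bone marrow derived macrophages, 1 given IL-36 gamma and 1 control. The authors deposited raw counts for each Ensembl gene, without normalization. Tools named in the submitters' processing notes are HTSeq, STAR 2.5.0a, Trim Galore 0.6.1 and FastQC 0.11.8, with the build mm10. The sources used here do not give the annotation release or the strand setting. Summary rows without a gene held 55.1% of the sum in the IL-36 gamma library and 55.6% in the control library, and were left out. Most of this was reads in no annotated feature, 46.3% of the sum with IL-36 gamma and 47.2% in the control. Why these shares are so large was not tested.

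Symbols, positions and exon lengths came from GENCODE M21, in which 54409 of 54446 gene IDs matched once versions were dropped. TMM factors were 0.981 for IL-36 gamma and 1.02 for control (edgeR 4.0.16, R 4.3.3). With 1 library per condition, edgeR has no residual degrees of freedom, and it was used for scaling only. Ratios carry exact 95% Clopper-Pearson intervals from scipy 1.17.1, which cover counting error only, not the spread between cultures. Reads without molecular identifiers are not all independent molecules, so the intervals may be too narrow even for counting error. Log2 ratios use a prior count of 2. The size rule asks that the whole interval lie above 2 or below 0.5 at a mean count of at least 10. Intervals and the rule were tried on libraries simulated with Poisson counts. There 95.7% of intervals held the true ratio, and the rule passed 80.0% of genes set to 3-fold and 98.0% of those set to 8-fold. The simulation uses the counting model of the intervals, without spread between cultures or duplicated reads. It therefore cannot show how they hold in real cultures. Coding sequences were aligned with Biopython 1.88.

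The members and the 13 gene lists (213 names, 1 without a match) were chosen with earlier results of these data known. Named are all members and, per list, the 4 other genes whose interval bound nearest 1 is farthest from it, every NFAT and MiT gene, Atp6v0d1, Tnfsf11, Tnfrsf11b and the 5 genes nearest to Atp6v0d2 in log2 ratio. Other names were chosen after their values were seen, and 1 gene the rule names is not reported here. Lists share genes (Src, Tcirg1). Alternatives were upper quartile scaling, DESeq2 1.42.0 size factors, total counts, lowess trends (span 0.3) on length or expression, and other filters, bounds, interval levels and prior counts.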

Additional observations from a re-analysis of the deposited data

How the results depend on the processing

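Over 3 other scalings and the removal of a trend on length or expression, the Atp6v0d2 ratio stayed between 0.387 and 0.409. The counting intervals of Dcstamp and Ocstamp are so wide that their ratios could hardly leave them. Of 35 ratios of the other members under these settings, 33 stayed within their own counting interval. The 2 that did not were Acp5, with 1.03 after the length trend was removed and 1.06 after the expression trend was removed. The first left 0 members above 1. By total counts Nfatc1 joined the members below 1, which were then 3. The Atp6v0d1 ratio was 1.07 (1.01 to 1.13) without the length trend. By total counts 3 fusion genes lay above 1 and 8 resorption genes below. Without the expression trend these were 3 and 8, and 7 vacuolar ATPase genes lay above 1 and 5 below. The list counts and the mean count of at least 1000 were alternatives chosen after seeing the data, not before.

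The size rule passed 13 genes lower and 11 higher, and by total counts 16 and 8. Lower genes numbered 21 with no count filter, 5 at a mean count of at least 50, 8 among protein-coding genes, 1 at a mean count of at least 1000 (4 higher), 5 with a 99% interval, Atp6v0d2 not among them (7 higher), and 76 with a bound of 1.5-fold (50 higher). The GC alternative was not run, because no genome sequence was used here. No paired analysis was possible because each group has 1 library. Depth limits Dcstamp, Ocstamp and Oscar most.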

Other observations

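Genes that restrain osteoclast differentiation lay on both sides. Of 15 measured, 6 lay above 1 and 6 below, beside 20.2% and 16.5% of all measured genes. The median log2 ratio of the 15 was 0.00. Lilrb4a, which encodes an inhibitory receptor of myeloid cells, had 2053 counts with IL-36 gamma and 3463 in the control (ratio 0.622, 0.589 to 0.657). Socs3, a brake on cytokine signalling, had 1318 and 918 counts (ratio 1.51, 1.38 to 1.64), and Id2, an inhibitor of helix-loop-helix factors, 3099 and 2464 (ratio 1.32, 1.25 to 1.39).

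Macrophages and osteoclast precursors both depend on the M-CSF pathway. Of its 7 measured genes, 5 lay below 1 and 2 above, with a median log2 ratio of -0.11. Of all measured genes, 16.5% lay below 1 and 20.2% above. At a mean count of at least 1000 these shares were 22.9% and 44.3%. This list too was chosen with earlier results of these data known. The receptor gene Csf1r had 20786 counts with IL-36 gamma and 26965 in the control (ratio 0.809, 0.795 to 0.824). The ubiquitin ligase gene Cbl had 2676 and 3694 counts (ratio 0.760, 0.723 to 0.799), and the kinase subunit gene Pik3r1 1499 and 1840 (ratio 0.855, 0.798 to 0.916). The adaptor gene Grb2 had 6209 and 5825 counts (ratio 1.12, 1.08 to 1.16).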
